A study of Mus musculus with 12 samples.

Results

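Tumours that had received gemcitabine with both Cdh11 alleles intact were compared directly with tumours that had lost 1 Cdh11 allele and received no drug, so each group carried a single change from untreated wild type. The libraries were chosen by their titles: 3 named Wildtype Gemcitabine and 3 named CDH11 Heterozygous Control, 6 of 12 in the series. All 12 came from KPC mice of the strain C57BL/6;129 with pancreatic ductal adenocarcinoma, 1 mouse per library, and the other 6 were untreated wild-type and gemcitabine-treated Cdh11+/- tumours, 3 of each. The gemcitabine group was KPC Cdh11+/+ and treated, and the heterozygous group was KPC Cdh11+/- and untreated. The difference between them therefore mixes genotype and treatment, which cannot be told apart here. Dose, schedule, age, the nature of the Cdh11 allele and the promoter that drives Cre are not stated in the labels.

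KPC mice are engineered to develop pancreatic tumours and form duct-like carcinomas with a dense stroma of fibroblasts, matrix, vessels and immune cells. Cadherin 11, the product of Cdh11, is a calcium-dependent adhesion molecule that joins fibroblasts and other mesenchymal cells to one another. Gemcitabine is a deoxycytidine analogue that enters cells through nucleoside transporters, is phosphorylated first by deoxycytidine kinase and blocks DNA synthesis in dividing cells. The comparison asks how alike the tumours left by drug alone and by Cdh11 heterozygosity alone are, and where they differ.

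RNA had been extracted from snap-frozen tumour tissue and sequenced as stranded total RNA after removal of ribosomal RNA. The 6 libraries held between 43857100 and 48937108 counts. Of 52636 genes, 24065 had enough counts to be tested over the 4 groups. Levels are given as CPM, the counts of a gene relative to the library total after TMM scaling, differences as log2 of gemcitabine-treated wild type over untreated Cdh11+/- with ± standard error (SE), and ± beside a CPM mean is the SD over 3 mice. Libraries of both groups carried duct keratins and matrix genes. All 3 gemcitabine tumours and Cdh11+/- mouse 1 had Xist, which coats the silenced X chromosome, at 1322 to 3569 CPM. Mice 2 and 3 of the Cdh11+/- group had Xist at 1.64 and 1.37 CPM and 4 Y-linked genes summed to 183 and 39.8 CPM, against at most 0.743 CPM in the other 4 libraries. This split is not balanced between the groups, and its part in the differences below was not tested apart from the values given beside them.

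The distances between tumours of the 2 groups overlapped the distances within each group. Over 24065 genes the Spearman correlation of log2 CPM lay between 0.928 and 0.960 for the 9 pairs across groups (median 0.944), between 0.933 and 0.954 for the 3 pairs of untreated Cdh11+/- tumours and between 0.947 and 0.958 for the 3 pairs of gemcitabine tumours. The root mean squared log2 difference was 1.01 to 1.32 across groups, 1.06 to 1.28 within the Cdh11+/- group and 1.04 to 1.15 within the gemcitabine group. These pairs share libraries and are given as a description. The median log2 difference of all genes was -0.01 and the median absolute difference 0.28.

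Of all genes tested, 3 passed an adjusted p of 0.05 in edgeR's quasi-likelihood test with Benjamini-Hochberg adjustment (0.0125%). Gemcitabine tumours were higher for 2 of them, Gm10260 and BC023719 (0.00831%), and lower for 1, Trim12a (0.00416%). At an unadjusted p under 0.05 there were 1389 genes (5.77%), 712 higher (2.96%) and 677 lower (2.81%), where 1203 would be expected by chance. DESeq2 called 147 genes, 78 higher and 69 lower, including all 3. The same model called 0 genes for gemcitabine against untreated wild type (0% at adjusted p under 0.05, 2070 genes or 8.6% at unadjusted p under 0.05) and 4 for untreated Cdh11+/- against untreated wild type (0.0166%, and 2928 or 12.2%). Those contrasts share the 3 untreated wild-type libraries with each other and 1 group each with the direct comparison.

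A p that misses the threshold does not show that levels are the same, so likeness was counted separately. A gene was counted as alike where the 95% interval of its log2 difference lay inside -1 to 1, that is within 2-fold. This held for 9068 genes (37.7%). The share followed the level of the gene: 1.96% of 6491 genes with a mean under 1 CPM, 25.4% of 7051 genes from 1 to 10 CPM, 66.5% of 8486 genes from 10 to 100 CPM and 73.8% of 2037 genes from 100 CPM. The median width of the interval narrowed in the same order from 3.09 through 1.94 and 1.17 to 1.09 on the log2 scale. A list share above 37.7% therefore does not show more likeness than among genes of the same level. The 3 libraries of one group lay entirely above or below those of the other for 1982 genes (8.24%), 989 higher with gemcitabine (4.11%) and 993 lower (4.13%). At a mean of 100 CPM or more, 39 of 2037 genes differed by more than 2-fold in either direction.

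**Figure D1:**
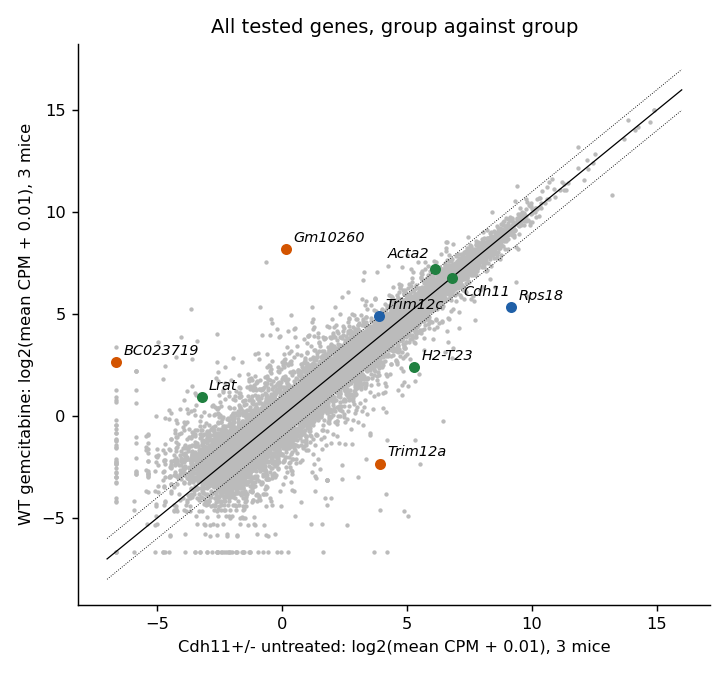
Mean level of each of 24065 tested genes in 3 untreated Cdh11+/- tumours (x axis) and 3 gemcitabine-treated wild-type tumours (y axis), both as log2 of mean CPM plus 0.01. The solid line marks equal levels and the dotted lines a 2-fold difference. The 3 called genes (orange) lie far from the line, their near-identical partners Rps18 and Trim12c are in blue, and Cdh11 lies on the line.

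Cdh11 itself did not separate the groups. The gene lies on chromosome 8 (102632095 to 102785642, minus strand, GRCm38). The gemcitabine group had 6505, 2675 and 5116 counts, or 142, 62.2 and 123 CPM. Untreated Cdh11+/- tumours had 6759, 5326 and 3710 counts, or 148, 115 and 73.7 CPM. The ranges overlap, and the wild-type group held the lowest of the 6 values. Means were 109 ± 41.7 and 112 ± 37.4 CPM (SD, n = 3), a log2 difference of -0.04 ± 0.37 with a 95% interval of -0.85 to 0.76 (edgeR adjusted p = 0.996), so Cdh11 counted as alike within 2-fold. In untreated wild type it was at 225, 283 and 165 CPM. Against them Cdh11 lay at -1.04 in the gemcitabine and -0.998 in the Cdh11+/- group. In bulk tissue, fewer cells of a type and less RNA per cell cannot be told apart.

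All 3 called genes have a near-identical partner, on the same chromosome for Trim12a and BC023719 and on another for Gm10260. The sequences below show where the partners of each pair differ most. Each is a stretch of 120 bases from GENCODE M21 transcripts on GRCm38, 5′ to 3′, with the bases that differ between the partners in capitals. It was picked as the ungapped stretch with the most differing bases, so differences are sparser over the whole alignment. Trim12a and Trim12c belong to the Trim5 family of antiviral restriction factors on chromosome 7. Gm10260 on chromosome 13 is a single-exon copy of Rps18, a protein of the small ribosomal subunit. BC023719 is annotated as antisense in the class I histocompatibility region of chromosome 17, where A930015D03Rik resembles it. The Trim windows are chr7:104307077-104307196 and chr7:104348093-104348212, both on the minus strand and coding. The Gm10260 window is chr13:97760158-97760277 (minus, coding) and that of Rps18 runs over 2 exons within chr17:33952071-33952292 (minus, coding). The BC023719 and A930015D03Rik windows are chr17:36116249-36116368 and chr17:36037571-36037690 (plus).
Trim12a: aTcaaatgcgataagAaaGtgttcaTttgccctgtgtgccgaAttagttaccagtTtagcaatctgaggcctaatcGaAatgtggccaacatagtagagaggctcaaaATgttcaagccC
Trim12c: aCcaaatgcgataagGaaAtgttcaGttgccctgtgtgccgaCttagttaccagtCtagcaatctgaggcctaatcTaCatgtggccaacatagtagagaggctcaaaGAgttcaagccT
Gm10260: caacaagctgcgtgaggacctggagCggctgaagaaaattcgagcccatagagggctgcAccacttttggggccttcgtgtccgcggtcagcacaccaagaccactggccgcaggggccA
Rps18: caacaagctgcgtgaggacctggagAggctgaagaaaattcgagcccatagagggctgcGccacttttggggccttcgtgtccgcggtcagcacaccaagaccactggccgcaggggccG
BC023719: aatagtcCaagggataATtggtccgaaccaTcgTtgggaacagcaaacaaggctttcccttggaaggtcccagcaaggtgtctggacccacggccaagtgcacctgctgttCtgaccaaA
A930015D03Rik: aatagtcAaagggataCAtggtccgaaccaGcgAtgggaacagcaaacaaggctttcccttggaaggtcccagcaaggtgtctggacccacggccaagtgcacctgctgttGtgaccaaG
Of the 120 bases, 11 differ in the Trim pair, 3 in the Rps18 pair and 7 in the BC023719 pair. Over the aligned coding sequence Trim12a and Trim12c were 96.4% identical (892 bases) and Gm10260 and Rps18 99.1% identical (459 bases). The coding sequence of Trim12a is 894 bases long and that of Trim12c 1494, so the alignment covers only part of Trim12c. BC023719 and A930015D03Rik were 96.8% identical over 868 bases of the transcript.

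Gm10260 was higher in the gemcitabine than in the untreated Cdh11+/- group, and its parent gene lay the other way. Gm10260 had 9819, 20036 and 7833 counts in gemcitabine and 41, 43 and 76 in untreated Cdh11+/- tumours, with a log2 difference of 8.02 ± 0.47 (edgeR adjusted p = 5.3e-05). It was at 143, 206 and 123 CPM in untreated wild type and at 117, 111 and 121 CPM in gemcitabine-treated Cdh11+/- tumours, so that of the 4 groups the untreated Cdh11+/- group alone was low, at 0.9 to 1.51 CPM. Gemcitabine against untreated wild type gave 0.88 (adjusted p = 0.559). Rps18 had 1245, 2775 and 1323 counts in gemcitabine and 27881, 17932 and 36265 in Cdh11+/- tumours. Its log2 difference was -3.80 ± 0.86 (adjusted p = 0.506). A further copy, Gm11361, had 5793, 13309 and 5044 counts against 28, 17 and 45. Over the 4 groups it did not follow Gm10260. Gm11361 had 5490, 5908 and 92 counts in untreated wild type and 16, 52 and 73 in gemcitabine-treated Cdh11+/- tumours. Between the 2 groups compared, Gm10260 and Gm11361 were higher with gemcitabine and Rps18 lower, each without overlap. Summed over Gm10260, Rps18 and the 4 other copies (Gm11361, Gm6794, Rps18-ps1 and Rps18-ps3), counts were 17684, 36314 and 14300 in gemcitabine and 27986, 18028 and 36431 in Cdh11+/- tumours. The sums overlap, and their log2 difference was -0.13 ± 0.35 (adjusted p = 0.996).

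Trim12a was lower in the gemcitabine than in the untreated Cdh11+/- group, at 0.306, 0.093 and 0.168 against 8.74, 16.8 and 20.2 CPM. The log2 difference was -6.31 ± 0.59 (edgeR adjusted p = 0.0024), with counts of 398, 778 and 1018 against 14, 4 and 7. Untreated wild-type tumours had 0.154, 0.369 and 0.118 CPM and gemcitabine-treated Cdh11+/- tumours 8.7, 11.0 and 9.65 CPM. Both Cdh11+/- groups were thus high and both wild-type groups low, whatever the treatment. Trim12c, its close relative, had 23.5, 22.1 and 45.4 CPM with gemcitabine and 18.6, 10.04 and 15.1 CPM in Cdh11+/- tumours (1.05 ± 0.34). Together with Trim12c and Trim5 the difference was -0.07 ± 0.31 (adjusted p = 0.996).

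BC023719 was higher in the gemcitabine than in the untreated Cdh11+/- group. It had 360, 252 and 210 counts in gemcitabine tumours, or 7.87, 5.86 and 5.03 CPM, and no count in any untreated Cdh11+/- tumour. Against 3 counts per library this was at least 98.6-fold higher (edgeR adjusted p = 3.2e-04). Untreated wild-type tumours had 6.40, 5.33 and 3.08 CPM, and gemcitabine-treated Cdh11+/- tumours 2.87, 2.68 and 2.71 CPM. A930015D03Rik had 163, 139 and 117 counts in gemcitabine and 73, 181 and 98 in Cdh11+/- tumours, which overlap. With it summed, the difference was 1.93 ± 0.37 (adjusted p = 0.387). The summed counts, 523, 391 and 327 against 73, 181 and 98, still did not overlap, unlike those of Gm10260 and its copies. The labels do not state strand use in the counting, so reads of BC023719 and of genes on the other strand may not be separated. With only these 6 libraries in the model the Trim12a and BC023719 calls ended (adjusted p = 0.069 each), and summing the copies ended all 3 calls.

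**Figure D2:**
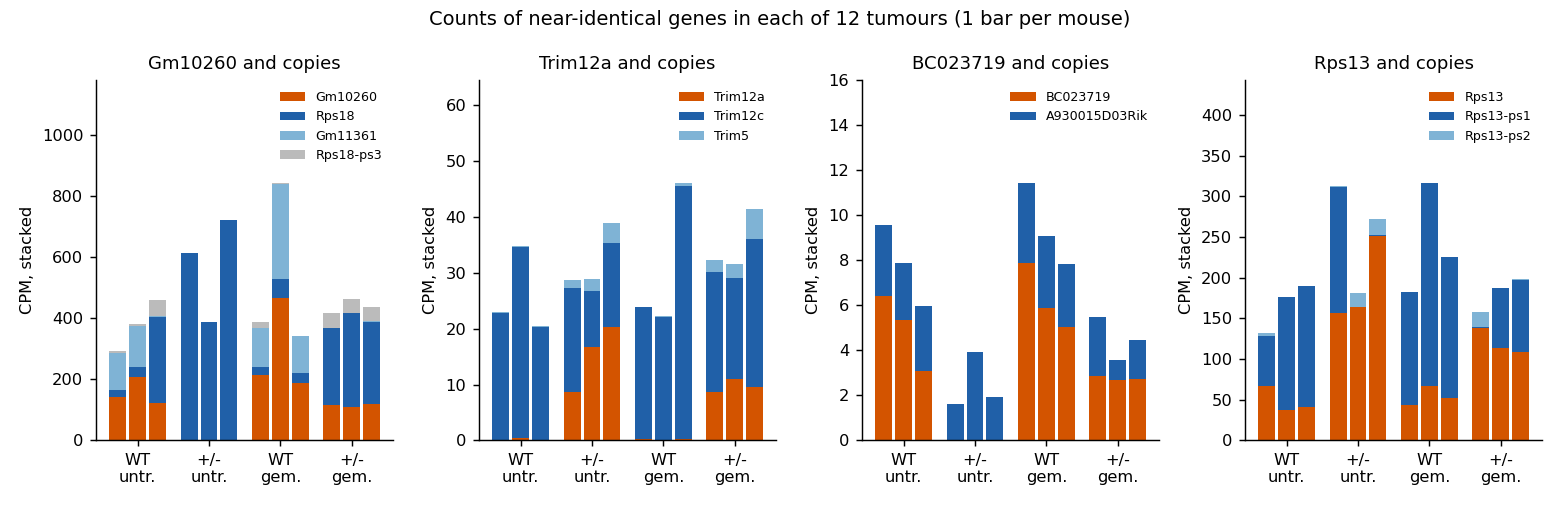
Stacked CPM of near-identical genes in each of 12 tumours, 1 bar per mouse, by group (WT wild type, +/- Cdh11 heterozygous, untr. untreated, gem. gemcitabine). Orange is Gm10260, Trim12a, BC023719 or Rps13, and the other colours are its copies. In the first panel untreated Cdh11+/- bars are almost wholly Rps18 and gemcitabine wild-type bars mostly Gm10260 and Gm11361.

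The genes next in order of p did not pass, and several lie in the same region or have copies too. DESeq2 called H2-Q1, H2-T23, Rps13, Dynlt1c, Snx10, Lrat, Myrip and Platr17, edgeR with no filter on low counts called H2-Q1, H2-T23 and Rps13, and edgeR with an acinar term called H2-T23. Among list members named below, DESeq2 also called Trim30d, Trim5, Trim34b, Cd3e, Cd5, H2-K1, H2-T22, H2-Eb1, Ivl, Krt13, Areg and Ctrb1. H2-Q1, a class I-like gene, had 60, 37 and 34 counts with gemcitabine and 0, 1 and 2 in Cdh11+/- tumours (5.40 ± 0.75, edgeR adjusted p = 0.092). H2-T23, which encodes the nonclassical class I molecule Qa-1, lay at 6.32, 4.69 and 5.01 CPM with gemcitabine and at 32.5, 29.2 and 55.6 CPM in Cdh11+/- tumours. Its log2 difference was -2.87 ± 0.41 (adjusted p = 0.105), or -2.18 ± 0.34 when summed with the pseudogene H2-T-ps. H2-T23 was at 4.87, 6.99 and 13.5 CPM in untreated wild type and at 18.6, 25.9 and 34.1 CPM in gemcitabine-treated Cdh11+/- tumours. Against untreated wild type it lay at -0.66 with gemcitabine and at 2.21 in untreated Cdh11+/- tumours. Rps13, a ribosomal protein gene, had -1.82 ± 0.28 (adjusted p = 0.132), and -0.08 ± 0.26 when summed with its 5 copies. Dynlt1c, a dynein light chain gene, had -1.18 ± 0.22, and -0.11 ± 0.21 with its 2 copies. Snx10, a sorting nexin of endosomes, was at 58.8, 58.2 and 53.6 CPM with gemcitabine and 109, 91.1 and 114 CPM in Cdh11+/- tumours (-0.88 ± 0.16, adjusted p = 0.25). Myrip, a linker of vesicles to myosin, and the transcript Platr17 had 3.83 ± 0.68 and 3.39 ± 0.62 (adjusted p = 0.25 each).

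The regions around the called genes on chromosomes 17 and 7 were described after their values were seen. Of all 24065 genes tested, 47 had an unadjusted p under 0.001. Of these 6 lay in the chromosome 17 region, 3 in the chromosome 7 region and the others elsewhere. By whole chromosome they were 12 of 1024 genes tested on chromosome 17 (1.17%), 10 of 1873 on chromosome 7 (0.534%) and 4 of 782 on chromosome 14 (0.512%). These were the highest shares, and the next was 0.386% on chromosome 13. Between the outermost class I and class II presentation genes listed on chromosome 17 (chr17:33915899-37274484), 29 of 182 genes tested had p under 0.05 (15.9%, against 5.77% of all genes). Without the listed genes it was 22 of 160 (13.8%). Rps18, the partner of Gm10260, lies within this region. The groups did not overlap for 19.8% of the 182, against 8.24% of all genes. Among the 12 genes tested around the Trim5 family (chr7:104218793-104507849), 5 had p under 0.05. They went both ways: Trim12a, Trim30d (-3.19 ± 0.60) and Trim5 (-3.13 ± 0.70) were lower with gemcitabine, and Trim34b (2.36 ± 0.65) and Trim12c higher. Trim30d had 0.765, 0.209 and 0.527 CPM with gemcitabine and 3.38, 5.57 and 4.83 CPM in Cdh11+/- tumours. The median of the 10 listed Trim genes was 0.07 and 0 of the 10 counted as alike. Which strain's alleles each mouse carried at these loci was not analysed here.

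Matrix genes did not separate the 2 groups. Of 27 fibrillar collagens and matrix proteins 22 had a log2 difference above 0 (48.7% of all genes did), and the median was 0.48. Among them 0 were called, 0 did not overlap between groups and 3 were alike (37.7% of all genes were). Summed matrix CPM was 37392, 20104 and 18524 with gemcitabine and 21028, 23912 and 10073 in Cdh11+/- tumours. Gemcitabine mouse 1 stood high and Cdh11+/- mouse 3 low, and the other 4 tumours lay within 18524 to 23912. Untreated wild-type tumours had 34001, 37801 and 49160 CPM, so gemcitabine mouse 1 was not low in matrix by this sum. The median against untreated wild type was -0.65 for gemcitabine and -1.12 for Cdh11+/-, both from the same 3 control libraries. Without gemcitabine mouse 1 the median between the groups was 0.10, and without Cdh11+/- mouse 3 it was 0.18.

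Single matrix genes showed the same overlap. Col1a1, which encodes the main chain of type I collagen, was at 4777, 2039 and 1813 CPM with gemcitabine and 1530, 2259 and 1115 CPM in Cdh11+/- tumours (0.82 ± 0.53). Col3a1, of type III collagen, was at 5058, 2487 and 1967 against 1995, 1971 and 1433 CPM (0.82 ± 0.36). For both, gemcitabine mouse 1 stood well above the other 5 tumours, which overlapped. Col6a3, a chain of the pericellular type VI collagen, had 452, 221 and 81.2 CPM against 78.1, 56.4 and 115 CPM (1.59 ± 0.54). Tnc, the de-adhesive glycoprotein tenascin C, had 1600, 1154 and 340 against 448, 486 and 78.1 CPM (1.61 ± 0.66). Fn1, fibronectin, had 9584, 4364 and 4070 against 6056, 6106 and 2024 CPM (0.35 ± 0.49). Fbn1, the microfibril protein fibrillin, was alike within 2-fold at 0.08 ± 0.35 (95% interval -0.69 to 0.86). None of these passed (edgeR adjusted p from 0.813 to 0.996).

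Enzymes that cross-link and remodel matrix had a median of 0.22 over 26 genes. Of these 7 were alike (26.9%, against 37.7% of all genes) and 1 did not overlap, higher with gemcitabine (4.11% of all genes). The median was 0.61 without Cdh11+/- mouse 2 and -0.01 without mouse 3. That gene was Mmp10, stromelysin 2, at 6.45, 4.69 and 2.95 CPM with gemcitabine and 2.13, 2.12 and 1.11 CPM in Cdh11+/- tumours (1.39 ± 0.56). The lysyl hydroxylase Plod3 was alike at 0.35 ± 0.21, and the gelatinase Mmp2 had 0.06 ± 0.61 with a wide interval of -1.27 to 1.395. Basement membrane genes had a median of 0.32 over 15 genes, of which 5 were alike (33.3%, against 37.7% of all genes). The collagen IV chains Col4a1 and Col4a2 were among them (0.32 ± 0.27 and 0.26 ± 0.27). Of the 15 genes, 1 did not overlap, higher with gemcitabine (4.11% of all genes). That was the laminin chain gene Lama1, with 145, 54.2 and 52.0 CPM against 34.0, 50.9 and 21.5 CPM (1.24 ± 0.52).

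Contractile genes of myofibroblasts lay higher with gemcitabine than in untreated Cdh11+/- tumours. All 15 had a log2 difference above 0, with a median of 0.66, and 4 did not overlap (4.11% of all genes did so in this direction). Summed, they gave 4465, 5424 and 4153 CPM with gemcitabine and 3452, 3669 and 3551 CPM in Cdh11+/- tumours. Every gemcitabine tumour was above every Cdh11+/- tumour, and 2 of the 3 were within the untreated wild-type range of 4424 to 6591 CPM. The median against untreated wild type was -0.00 for gemcitabine and -1.03 for Cdh11+/-. The median between the groups lay between 0.48 and 0.87 in the alternatives tried, including each mouse left out. No single gene passed over all genes.

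Acta2, smooth muscle actin, was at 200.98, 153 and 93.5 CPM with gemcitabine and 87.9, 69.6 and 50.6 CPM in Cdh11+/- tumours. The means were 149 ± 53.8 and 69.4 ± 18.7 CPM (SD, n = 3), a log2 difference of 1.10 ± 0.34 (edgeR adjusted p = 0.798). In untreated wild type Acta2 was at 166, 126 and 224 CPM, so that the Cdh11+/- group stood apart from both wild-type groups. Myl9, a regulatory light chain of myosin, had 49.2, 33.5 and 22.4 against 21.1, 19.0 and 11.5 CPM (1.03 ± 0.38). Actg2, the enteric smooth muscle actin, had 43.5, 41.0 and 10.9 against 9.62, 6.35 and 4.94 CPM (2.19 ± 0.77). Cnn1, calponin, had 17, 19.8 and 5.37 against 4.79, 4.34 and 2.66 CPM (1.84 ± 0.79). In Actg2 and Cnn1 gemcitabine mouse 3 lay close to the Cdh11+/- tumours. Flna, the actin cross-linker filamin A, was alike at 0.26 ± 0.25.

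Mesenchymal and stellate cell genes had a median of 0.39 over 16 genes. Of these 4 were alike (25%, against 37.7% of all genes), and 2 did not overlap, both higher with gemcitabine (4.11% of all genes). The median was 0.99 without Cdh11+/- mouse 2 and 0.18 without gemcitabine mouse 1. Lrat, the enzyme that esterifies retinol for storage in quiescent stellate cells, was at 1.49, 1.79 and 2.47 CPM with gemcitabine and 0, 0.173 and 0.119 CPM in Cdh11+/- tumours. Its log2 difference was 4.25 ± 0.73 (edgeR adjusted p = 0.24). Lrat in untreated wild type was at 7.28, 8.81 and 9.84 CPM. The 3 groups did not overlap, with gemcitabine in between. Twist1, a mesenchymal transcription factor, had 6.60, 3.81 and 9.78 CPM against 2.39, 3.04 and 0.159 CPM (1.85 ± 1.01). Zeb2, another, was alike at 0.12 ± 0.26. Inflammatory fibroblast genes had a median of 0.09 over 16 genes, and none was alike. It was -0.13 without gemcitabine mouse 1 and -0.15 without mouse 2. Among these genes 1 did not overlap, higher with gemcitabine (4.11% of all genes). That was the hyaluronan synthase gene Has2, at 32.1, 24 and 16.9 against 14.5, 13.3 and 2.62 CPM (1.26 ± 0.55). Pdgfra, the receptor that marks fibroblasts, had 144, 53.9 and 97.5 against 77.8, 145 and 28.4 CPM (0.23 ± 0.49). TGF-beta pathway genes had a median of 0.21, with 9 of 18 alike (50%). The share was 37.7% of all genes and 66.5% of genes at 10 to 100 CPM. The latent TGF-beta binding proteins Ltbp2 (-0.73 ± 0.34) and Ltbp4 (-0.70 ± 0.41) were the 2 that did not overlap, lower with gemcitabine (4.13% of all genes).

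**Figure D3:**
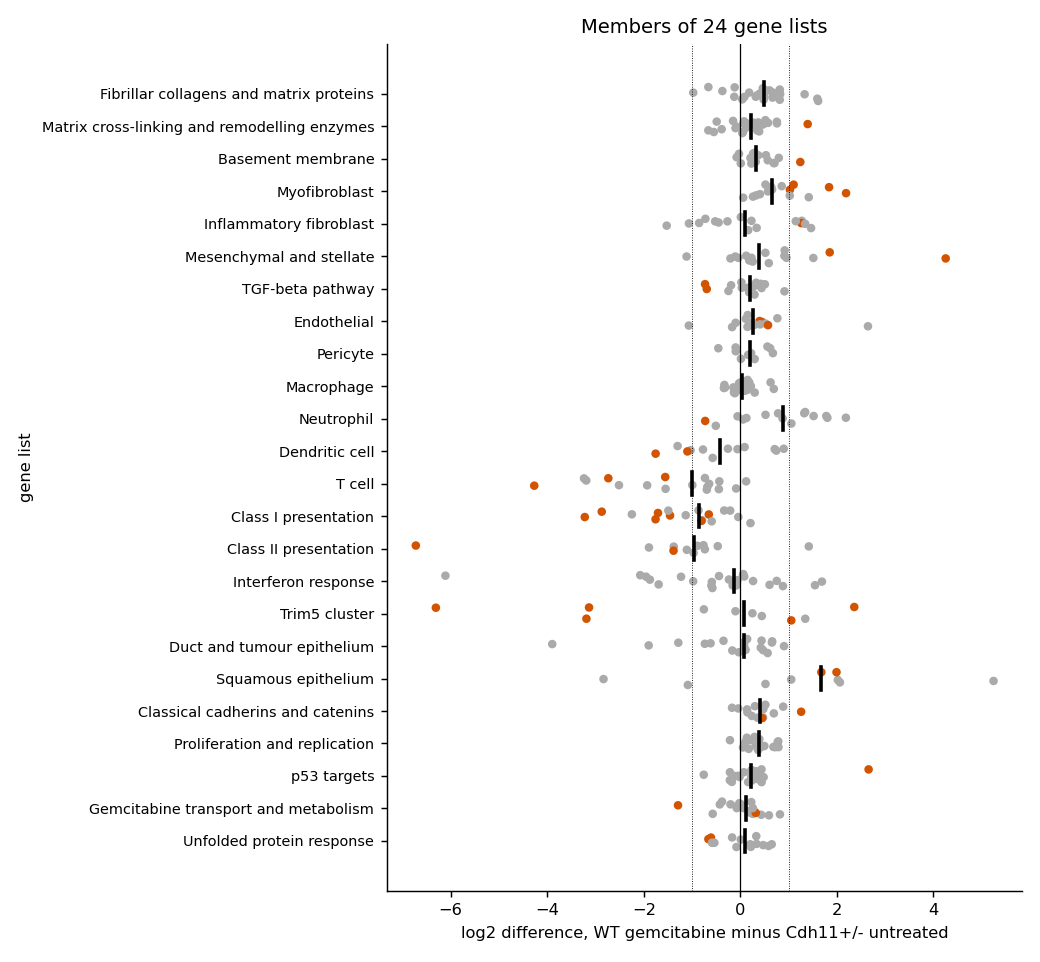
Log2 difference of each tested member of 24 gene lists, gemcitabine-treated wild type minus untreated Cdh11+/- (x axis), 1 point per gene and the list median as a black bar. Orange points are genes whose 3 + 3 libraries do not overlap and dotted lines mark a 2-fold difference. Myofibroblast points all lie above 0, and T cell and class I presentation points lie below 0 but for 1 in each.

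Endothelial genes had a median of 0.25 over 17 genes, with 8 alike. The share alike was 37.7% of all genes and 66.5% of genes at 10 to 100 CPM. Of the 17 genes, 3 did not overlap, all higher with gemcitabine (4.11% of all genes). The median was 0.06 without gemcitabine mouse 1 and 0.42 without mouse 3. Cdh5, the cadherin of endothelial junctions, was at 66.5, 57.6 and 53.6 CPM with gemcitabine and 44.1, 51.2 and 34.8 CPM in Cdh11+/- tumours. Its difference of 0.45 ± 0.20 had an interval of 0.01 to 0.89, so the gene was alike within 2-fold although its libraries did not overlap. Eng, a co-receptor of TGF-beta, was alike likewise at 0.40 ± 0.25. Vwf, the adhesive protein of endothelial granules, had 55.2, 23.5 and 47.5 against 87.0, 129 and 48.9 CPM (-1.07 ± 0.49), with 1 Cdh11+/- tumour inside the gemcitabine range. Against untreated wild type the endothelial median was -0.68 for gemcitabine and -0.85 for Cdh11+/-. Pericyte genes had a median of 0.19 over 10 genes, 2 of them alike, and lymphatic vessel genes -0.27 over 6, 0 alike. The lymphatic median was 0.22 without Cdh11+/- mouse 2. Classical cadherins and catenins had a median of 0.40 over 14 genes, 6 alike (42.9%, against 66.5% of genes at 10 to 100 CPM). Of these 2 did not overlap, both higher with gemcitabine (4.11% of all genes), Cdh5 and Cdh6. Cdh6 was at 62.5, 52.9 and 41.6 against 27.3, 29.6 and 8.64 CPM (1.26 ± 0.53).

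Macrophage genes overlapped between the groups. They had a median of 0.04 over 20 genes (-0.34 without gemcitabine mouse 1, -0.10 without Cdh11+/- mouse 3). Among them 0 were called, 0 did not overlap and 5 were alike (37.7% of all genes were). Their sums were 3383, 1842 and 1667 CPM with gemcitabine and 2481, 1731 and 1531 CPM in Cdh11+/- tumours, with mouse 1 the highest of each group. The lysozyme gene Lyz2 had 0.00 ± 0.74, and the Fc receptor gene Fcgr3 was alike at 0.16 ± 0.24. Both groups had nearly the same macrophage median against untreated wild type, -0.84 and -0.85, from the shared controls. Neutrophil genes had a median of 0.87 over 15 genes, none alike, and their sums overlapped (227 to 349 and 175 to 377 CPM). Without gemcitabine mouse 2 the median was -0.10. Lipocalin 2, Lcn2, went the other way without overlap (4.13% of all genes in this direction), at 83.2, 36.6 and 48.6 against 89.0, 106 and 84.2 CPM (-0.73 ± 0.46). Dendritic cell genes had a median of -0.42 over 12 genes, 4 above 0, or 0.14 without Cdh11+/- mouse 3. Their sums overlapped and had the higher mean with gemcitabine, at 292, 253 and 205 against 212, 169 and 140 CPM. Fscn1 (0.74) and Cadm1 (0.71) were among those above 0. Of the 12, 2 did not overlap, both lower with gemcitabine (4.13% of all genes). Xcr1, the chemokine receptor of cross-presenting dendritic cells, was 1 of these 2, at low levels of 0.262, 0.302 and 0.264 against 0.747, 0.497 and 1.57 CPM (-1.76 ± 0.71).

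T cell and antigen presentation genes lay lower with gemcitabine than in untreated Cdh11+/- tumours, and the list medians lay nearer 0 without Cdh11+/- mouse 3. T cell genes had a median of -0.995 over 17 genes, 1 above 0, with 3 that did not overlap (4.13% of all genes did so in this direction), 0 called by edgeR and 0 alike. Cd3e, a chain of the T cell receptor complex, had 0.0874, 0.0465 and 0.0719 CPM with gemcitabine and 0.527, 1.81 and 1.79 CPM in Cdh11+/- tumours (-4.27 ± 1.27, edgeR adjusted p = 0.776). Cd5, a T cell surface receptor, had 0.503, 0.163 and 0.24 against 2.20, 1.27 and 2.62 CPM (-2.74 ± 0.61, adjusted p = 0.506). The co-stimulator Cd28 had 0.262, 0.256 and 0.360 against 0.549, 0.713 and 1.33 CPM (-1.56 ± 0.68). These levels are low in both groups. DESeq2 called Cd3e (adjusted p = 0.034) and Cd5 (adjusted p = 0.0044). Summed T cell genes overlapped, at 27.9, 37.3 and 22.1 against 59.9, 21.03 and 50.01 CPM. Without Cdh11+/- mouse 3 the median was -0.13, with a term for Xist and Y-linked genes -0.43, and without the 2 Cdh11+/- libraries that hold Y-linked counts -0.39. Without mouse 1 or mouse 2 of that group it was -1.27 and -1.42. Against untreated wild type the T cell median was -0.85 for gemcitabine and 0.36 for Cdh11+/-, both from the same 3 control libraries.

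Class I presentation genes had a median of -0.87 over 17 genes, 1 above 0, with 7 that did not overlap, all lower with gemcitabine. Of all genes 4.13% did not overlap in this direction. H2-K1, a classical class I heavy chain, was at 72.7, 96.4 and 73.0 CPM with gemcitabine and 147, 182 and 462 CPM in Cdh11+/- tumours (-1.71 ± 0.45, edgeR adjusted p = 0.653). H2-T22, a nonclassical relative, was at 3.83, 3.02 and 2.69 against 19.7, 20.1 and 49.4 CPM (-3.22 ± 0.65, adjusted p = 0.375). In these genes and in H2-T23 all 3 Cdh11+/- tumours were high and mouse 3 the highest. DESeq2 called H2-K1 (adjusted p = 0.038) and H2-T22 (adjusted p = 1.2e-04). The peptide transporter genes Tap1 (-1.46 ± 0.53) and Tap2 (-0.81 ± 0.32), tapasin, Tapbp (-0.65 ± 0.26), and H2-Q7 (-1.76 ± 0.81) were the other non-overlapping members. H2-D1, the second classical heavy chain, was alike at 0.21 ± 0.35, with 297, 326 and 317 against 197, 232 and 384 CPM. The summed list was 684, 733 and 679 CPM with gemcitabine and 707, 774 and 1817 CPM in Cdh11+/- tumours. Without mouse 3 of the Cdh11+/- group the median was -0.17, and with the Xist and Y-linked term -0.32. Against untreated wild type the class I median was -0.45 for gemcitabine and 0.60 for Cdh11+/-, from shared controls.

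Class II presentation genes had a median of -0.97 over 11 genes, with 2 that did not overlap, both lower with gemcitabine (4.13% of all genes). H2-Eb1, the beta chain of I-E, was at 1.01, 0.535 and 0.935 CPM with gemcitabine and 71.9, 16.7 and 174 CPM in Cdh11+/- tumours (-6.72 ± 1.41, edgeR adjusted p = 0.428). Untreated wild-type tumours spanned 0.595 to 25.8 CPM. DESeq2 called H2-Eb1 (adjusted p = 6.9e-08). H2-Aa and Cd74, also of the list, did not show such a gap. H2-Aa, the alpha chain of another molecule, I-A, had 80.0, 25.8 and 79.6 against 117, 27.6 and 218 CPM (-0.97 ± 1.01). Cd74, the invariant chain, had 240, 69.9 and 174 against 235, 63.2 and 508 CPM (-0.74 ± 1.00). Without Cdh11+/- mouse 3 the median was -0.22, and with the Xist and Y-linked term -0.10. Against untreated wild type the class II median was -1.63 for gemcitabine and -0.64 for Cdh11+/-, from shared controls. Interferon response genes had a median of -0.14 over 26 genes, with 0 that did not overlap. It was 0.79 without Cdh11+/- mouse 3, -0.85 without gemcitabine mouse 3 and 0.04 without gemcitabine mouse 1 or 2. Cxcl9, a T cell chemokine induced by interferon gamma, was at 24.4 CPM in Cdh11+/- mouse 3 and at most 0.168 CPM in the other 5 tumours. Regulatory T cell and checkpoint genes had a median of -0.30 over 14 genes. Of these 2 did not overlap, both lower with gemcitabine (4.13% of all genes). Pdcd1, the PD-1 gene, was among them, at 0.219, 0.116 and 0.0719 against 0.373, 0.410 and 1.57 CPM (-2.50 ± 0.77). B cell, plasma cell and cytotoxic lymphocyte genes had medians of -0.29, -0.46 and -0.21, with 0 alike in each. Without Cdh11+/- mouse 3 these medians were 0.54, 0.06 and 0.74.

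**Figure D4:**
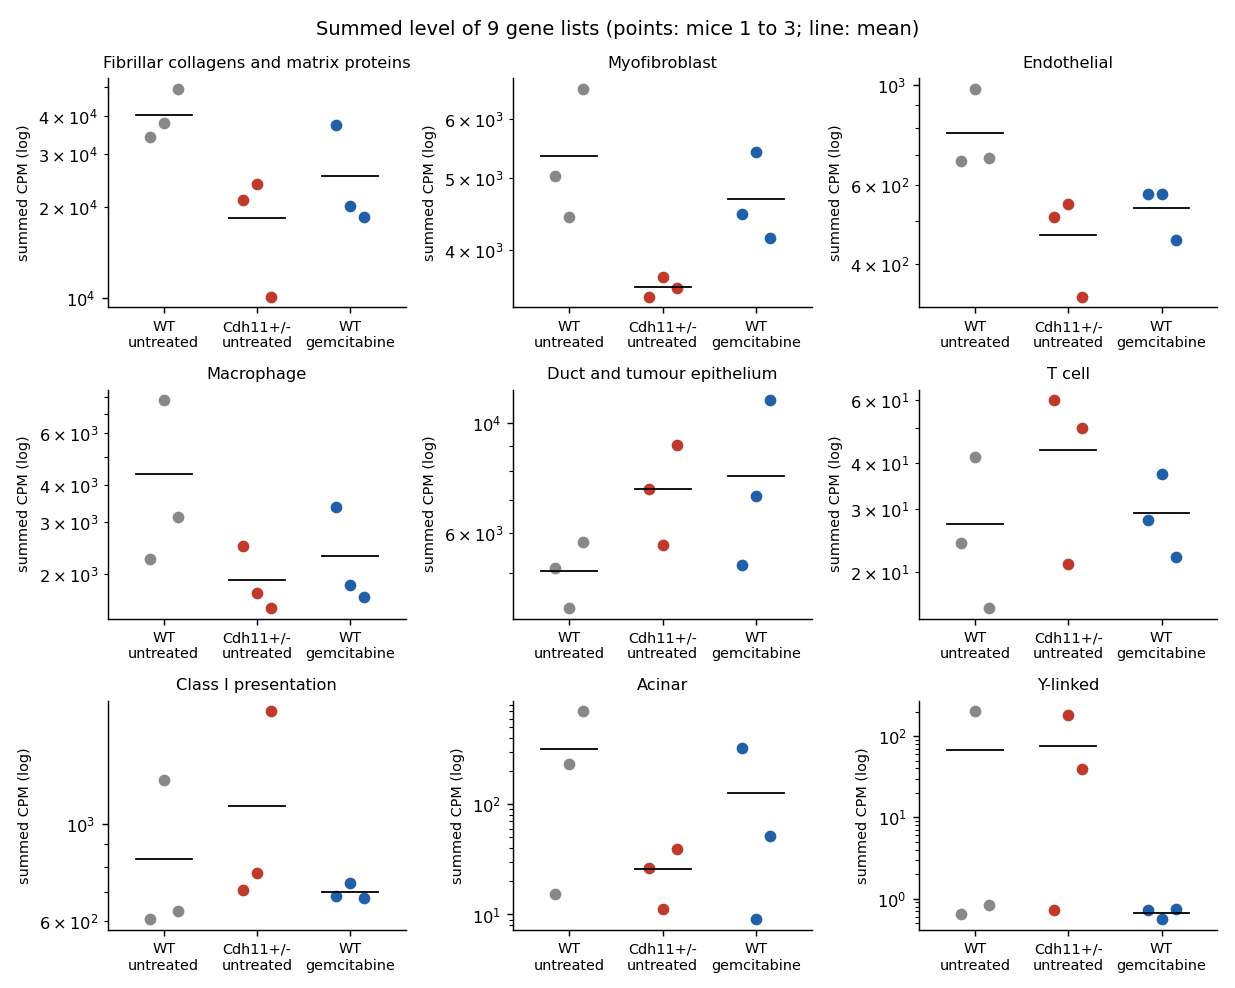
Summed CPM of 9 gene lists in each of 9 tumours (y axis, log scale), untreated wild type in grey, untreated Cdh11+/- in red and gemcitabine-treated wild type in blue, with the group mean as a line. Myofibroblast sums of the gemcitabine tumours (4153 to 5424 CPM) lie above those of the Cdh11+/- tumours (3452 to 3669 CPM), and Cdh11+/- mouse 3 stands alone in class I presentation at 1817 CPM.

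Duct and tumour epithelium genes overlapped between the groups, and few could be called alike. The 19 genes had a median of 0.08, with 0 called, 0 that did not overlap and 2 alike (37.7% of all genes were). The median lay between -0.17, without gemcitabine mouse 3, and 0.39, without Cdh11+/- mouse 3. Sums were 5181, 7126 and 11150 CPM with gemcitabine and 7374, 5679 and 9029 CPM in Cdh11+/- tumours. The keratin gene Krt18 was alike at 0.08 ± 0.33, as was the tetraspanin gene Tspan8 at 0.11 ± 0.33. Cdh1, the epithelial cadherin, had 651, 738 and 1056 against 694, 558 and 512 CPM (0.47 ± 0.25). Muc5ac, a gastric mucin, had -3.90 ± 1.75, which rested on 1 tumour: Cdh11+/- mouse 3 had 2637 CPM and the other 5 between 9.74 and 78.2 CPM. Squamous epithelium genes had a median of 1.68 over 9 genes, with 2 that did not overlap, both higher with gemcitabine (4.11% of all genes). Without gemcitabine mouse 1 the median was 1.07. Ivl, involucrin of the cornified envelope, was at 62.0, 84.7 and 114 CPM with gemcitabine and 24.5, 23.1 and 34.0 CPM in Cdh11+/- tumours (1.68 ± 0.38, edgeR adjusted p = 0.523). In untreated wild type Ivl was at 65.9, 57.6 and 95.1 CPM. The basal regulator Trp63 and the keratin Krt13 had opposite signs, -2.84 ± 1.26 and 5.25 ± 1.32, and both were at low levels.

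Output genes of the Ras pathway had a median of 0.40 over 14 genes. Of these 4 were alike (28.6%, against 37.7% of all genes), and 2 did not overlap, both higher with gemcitabine (4.11% of all genes). Ccnd1, cyclin D1, was at 292, 508 and 443 CPM with gemcitabine and 267, 283 and 220 CPM in Cdh11+/- tumours (0.69 ± 0.32). Areg, the EGF receptor ligand amphiregulin, had 10.3, 34.8 and 39.8 against 6.24, 10.6 and 2.28 CPM (2.15 ± 0.61, edgeR adjusted p = 0.746), and gemcitabine mouse 1 lay within the Cdh11+/- range.

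Of 20 genes of gemcitabine transport and metabolism 12 were alike, with a median of 0.12. The share alike was 37.7% of all genes and 66.5% of genes at 10 to 100 CPM, so the count is near the background for genes of such a level. The nucleotide kinase gene Cmpk1 was at 54.7, 53.3 and 68.2 CPM with gemcitabine and 64.9, 60.2 and 49.6 CPM in Cdh11+/- tumours (0.01 ± 0.16, 95% interval -0.33 to 0.36). Dck, the activating kinase, had 11.7, 15.1 and 9.01 against 6.43, 10.3 and 14.9 CPM (0.18 ± 0.40). Slc28a3, a concentrative nucleoside transporter, did not overlap (4.13% of all genes in this direction), at 9.16, 8.65 and 5.39 against 29.3, 10.9 and 16.7 CPM (-1.29 ± 0.79). Nt5c, a nucleotidase, did not overlap in the other direction (4.11% of all genes), at 26.5, 25.5 and 23.6 against 20.4, 22.5 and 17.7 CPM (0.32 ± 0.23). Slc29a1, the equilibrative transporter, overlapped (-0.57 ± 0.55). Of 21 p53 target genes 9 were alike (42.9%, against 66.5% of genes at 10 to 100 CPM), with a median of 0.23. Mdm2, which targets p53 for degradation, was at 59.0, 58.9 and 66.8 against 59.0, 61.9 and 44.5 CPM (0.16 ± 0.17). Gdf15, a secreted stress cytokine, was the 1 member that did not overlap, higher with gemcitabine (4.11% of all genes). It had 4.55, 1.95 and 1.08 against 0.22, 0.518 and 0.457 CPM (2.66 ± 0.92, edgeR adjusted p = 0.813). The cell-cycle inhibitor gene Cdkn1a had -0.18 ± 0.46.

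Proliferation and replication genes spread widely within both groups. Of 22 genes 21 had a log2 difference above 0, the median was 0.39, and 0 did not overlap. Without gemcitabine mouse 2 the median was -0.27, and without Cdh11+/- mouse 3 it was 1.16. Sums were 698, 1522 and 392 CPM with gemcitabine and 435, 351 and 1279 CPM in Cdh11+/- tumours. Mki67 followed the same tumours, with 129, 391 and 71.9 against 91.7, 64.2 and 399 CPM (0.09 ± 0.75). Pcna, the clamp of DNA polymerase, was the 1 member alike within 2-fold (0.39 ± 0.26). In the unfolded protein response the median was 0.11 over 14 genes. Herpud1 (-0.66 ± 0.22) and Xbp1 (-0.61 ± 0.25) did not overlap, both lower with gemcitabine (4.13% of all genes). Herpud1 had 93.6, 66.7 and 98.3 against 101, 132 and 177 CPM. Glycolysis and hypoxia genes had a median of -0.37 over 16 genes with 0 alike, and immediate early genes -0.02 over 15 with 3 alike. Without Cdh11+/- mouse 2 these were 0.67 and 0.73. The unfolded protein response median was -0.08 without Cdh11+/- mouse 1 and 0.46 without mouse 2.

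**Figure D5:**
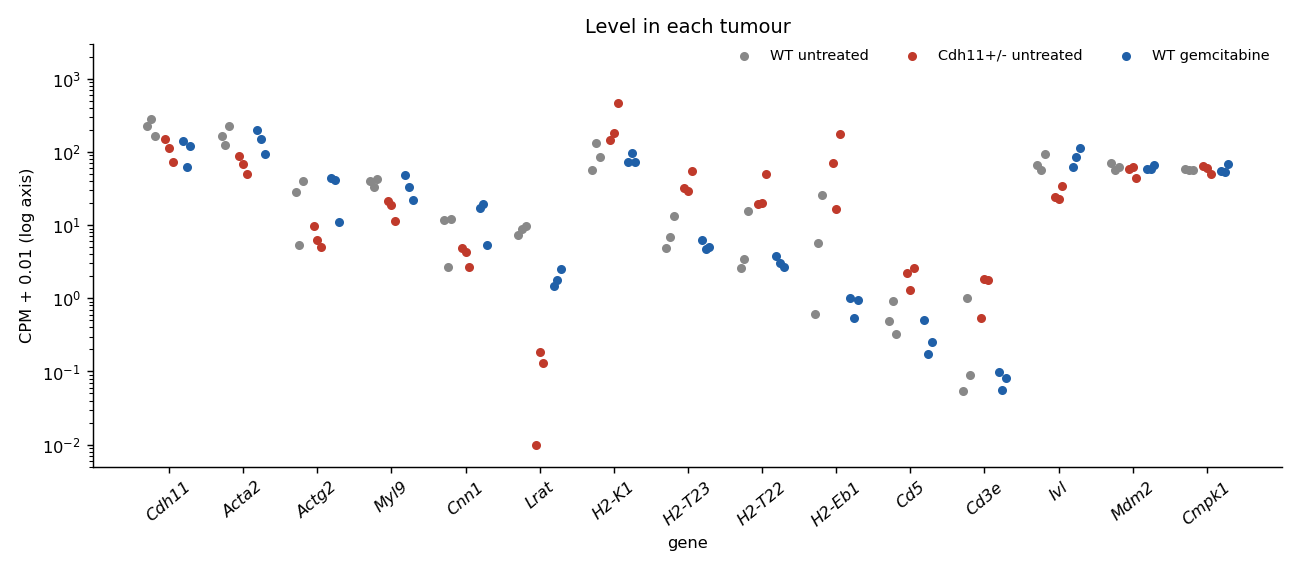
Level of 15 genes in each of 9 tumours as CPM plus 0.01 (y axis, log scale), untreated wild type in grey, untreated Cdh11+/- in red and gemcitabine-treated wild type in blue. Cdh11, Mdm2 and Cmpk1 overlap between the red and blue groups, while Acta2, Lrat, H2-T23 and H2-Eb1 do not.

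Remnants of normal tissue differed between single tumours. Acinar enzyme genes summed to 323, 9.04 and 51.3 CPM with gemcitabine and 26.4, 11.1 and 39.5 CPM in Cdh11+/- tumours. Over 22 genes the median was 6.03, and 0 were called by edgeR. Setting the 6 genes without counts in a whole group to their bound gave 4.73. It was 3.38 without gemcitabine mouse 1 and 1.24 with only the 6 libraries in the model. Ctrb1, chymotrypsinogen, had 106, 0.0232 and 9.69 against 0.0659, 0.0648 and 0.0794 CPM, so that 1 gemcitabine tumour lay below all Cdh11+/- tumours. Islet genes had a median of 1.45 over 17, hepatocyte genes 0.34 over 13, mesothelial genes 0.30 over 6, adipocyte genes -0.22 over 9, Schwann cell genes -0.56 over 12 and skeletal muscle genes -0.86 over 4. Without gemcitabine mouse 1 the islet, hepatocyte and mesothelial medians were -0.59, -0.18 and -0.63, and without Cdh11+/- mouse 3 the adipocyte median was 0.25. Erythroid genes had a median of -1.14 over 8, with sums of 36.8, 111 and 126 against 211, 692 and 26.9 CPM. Gemcitabine mouse 1, the highest in acinar and matrix genes, and Cdh11+/- mouse 3, the highest in class I genes and the lowest in matrix, bear on the list medians as the values without them show. Mitochondrial genes and the 7SL and 7SK RNAs had medians of 0.07 and 0.11 with 9 of 13 and 3 of 3 alike, and the 5 genes of X inactivation and escape 0.26.

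Among genes outside the lists, 5 known regulators and enzymes with large differences were picked out after their values were seen, and none passed the adjusted test. Zic2, a zinc finger transcription factor of neural development, was at 5.77, 13.6 and 19.5 CPM with gemcitabine and 0.022, 0.194 and 0.0397 CPM in Cdh11+/- tumours (7.21 ± 1.55, edgeR adjusted p = 0.476). Untreated wild-type tumours had at most 0.904 CPM, so that only the gemcitabine group of these 3 was high. Gata3, a transcription factor of luminal epithelium and T helper cells, had 7.30, 8.92 and 3.6 against 1.16, 0.821 and 0.278 CPM (3.13 ± 0.62, adjusted p = 0.329). Wif1, a secreted inhibitor of Wnt ligands, had 24.1, 5.6 and 14.3 against 1.10, 1.34 and 0.298 CPM (4.01 ± 0.80, adjusted p = 0.349). Kank4, an adaptor of the cytoskeleton, had 0.590, 0.163 and 0.408 against 3.51, 3.48 and 4.53 CPM (-3.30 ± 0.70, adjusted p = 0.428). Mgst1, a membrane glutathione transferase, had 37.5, 14.9 and 19.0 against 109, 44.7 and 77.5 CPM (-1.70 ± 0.37, adjusted p = 0.498). In all 5 the libraries of the 2 groups did not overlap, as for 8.24% of all genes. Since the 5 were picked for large differences between these libraries, this adds no information.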

How the data were processed

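Total RNA of 12 snap-frozen tumours, 3 mice in each of 4 groups, had been sequenced as stranded libraries after removal of ribosomal RNA, per the labels' protocols. The authors deposited expected counts per gene for each library, made with RSEM on GRCm38 per the submitters' processing notes. No source used here gives the aligner, the versions, the annotation release or the strand setting. The deposited values were whole numbers already, so no rounding was needed. The table of the whole series holds the same 12 columns and was not used. Groups came from the sample titles.

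Identifiers were matched to GENCODE M21, which gave a symbol to 52489 of 52636; the other 147 held 0.0452% of counts. Where genes share a symbol, the one with most counts was taken. All 12 libraries (39388328 to 56559413 counts) were fitted with edgeR 4.0.16 in R 4.3.3, with filterByExpr, TMM scaling, 1 mean per group and robust quasi-likelihood tests, and Benjamini-Hochberg adjustment over 24065 genes at 0.05. The biological coefficient of variation was 46.4%. SEs are the log2 difference divided by the square root of F, and intervals use the t distribution. CPM use TMM-scaled library sizes. With 3 mice against 3, an exact permutation test of a single value cannot go below p = 0.1. Copies are transcripts with at least 95% identity over at least 50% of the query in blastn 2.17.0 on the same strand. Scripts were tested on simulated data.

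The groups compared, the 44 gene lists (646 symbols, 619 tested) and the tests were chosen with earlier results of these data known. Named genes are Cdh11, called genes, the genes of smallest p up to 5 in each direction leaving out predicted, RIKEN and unnamed genes, and members of the lists by p, level and narrowest interval. Gm10260, Zic2, Gata3, Wif1, Kank4, Mgst1, some list members named for their role, the loci on chromosomes 7 and 17 and the sequence windows were chosen after values were seen. Each library is a different mouse, and the titles do not say whether replicate numbers match mice across groups, so the mice were not treated as paired. Same-number deviations correlated at 0.14, -0.10 and -0.15, and the other pairs at -0.18 to 0.24. These few dependent values cannot settle whether the numbers match mice. Alternatives were other scaling factors, low-count filters, DESeq2 1.42.0, limma 3.58.1 (voom), only 6 libraries, terms for Xist and Y-linked genes, acinar genes or replicate number, and each mouse left out. Leaving out the Y-linked Cdh11+/- libraries and summing copies were added after seeing the data.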

Additional observations from a re-analysis of the deposited data

How the results depend on the processing

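The 3 calls (2 higher, 1 lower) became 147 with DESeq2 (78 higher, 69 lower), 7 with no filter on low counts (4 higher, 3 lower), 4 with an acinar term (2 lower) and 9 without the Y-linked Cdh11+/- libraries (5 higher, 4 lower), where 1 Cdh11+/- library is assumed to vary like the other groups. With 1 mouse left out they numbered 3 to 11, with 2 to 7 higher and 1 to 4 lower: 11 without Cdh11+/- mouse 1, 6 without mouse 3 and 5 without gemcitabine mouse 1. Gm10260, BC023719 and Trim12a were among the calls of each of these settings. With only the 6 libraries 3 genes were called, of which 1 was among them, and the adjusted p of BC023719 and Trim12a was 0.069. Summing near-identical copies gave -0.13 for Gm10260, -0.07 for Trim12a and 1.93 for BC023719, none called. Genes alike within 2-fold numbered 4629 without the Y-linked Cdh11+/- libraries, 7224 to 7780 with 1 mouse left out and 6249 to 9688 in the other settings. The cause of these shifts was not tested.

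Cdh11 was called in no setting, at 0.025 with the replicate block and from -0.29 to 0.24 with 1 mouse left out (0.21 without Cdh11+/- mouse 1 and 0.24 without gemcitabine mouse 2). Without the Y-linked Cdh11+/- libraries it was -0.46. The replicate block gave 3 calls, the same 3 genes, and 8553 alike genes. Since no pairing by number is stated, it is not read as a paired comparison. Of 789 list medians over 18 alternatives 750 stayed within the spread between mice and 39 moved, and 20 of 44 lists kept their sign throughout. The stricter filter left no gene of the cytotoxic lymphocyte and skeletal muscle lists, and leaving out the 7SL and 7SK RNAs leaves no median for them. With 3 mice a group, the median interval was 1.82 wide on the log2 scale, so most genes under 10 CPM could be placed neither as alike nor as different.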
